A study of Homo sapiens with 2 samples.

Results

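Members of the Notch pathway were measured in single cells of Blood-Generating Heart-Forming Organoids (BG-HFOs), 3-dimensional cultures in which cardiac, endothelial and blood cells form together. The members are 3 receptors (NOTCH1, NOTCH2 and NOTCH4), 4 ligands (DLL1, DLL4, JAG1 and JAG2) and 3 transcriptional targets (HEY1, HEY2 and HES1). They were taken by gene symbol, and all 10 were found among the 36601 genes of both count matrices. The 2 organoids, 32.7 and 33.10, are replicates of 1 condition. Both were made from hES3 NKX2.5-eGFP, an established human embryonic stem cell line that reports the cardiac gene NKX2-5 with a green fluorescent protein, and both were analysed on day 14. In both, stem cell aggregates in Matrigel were guided by WNT modulation in opposite directions and by factors that favour blood and endothelium, so no untreated group exists and comparisons were made between classes of cells within the organoids.

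Notch receptors are bound by ligands on neighbouring cells. Binding lets the ADAM proteases and then gamma-secretase cut the receptor, and the freed intracellular part joins RBPJ and MAML proteins on DNA to switch on genes such as the HEY and HES repressors. In blood vessels this pathway is known for arterial identity, where DLL4, NOTCH1 and NOTCH4 act in endothelium, and the venous factor NR2F2 (COUP-TFII) is known to hold it down. Notch is also used in blood formation from endothelium and in the growth of heart muscle and the outflow region, where JAG1 is a main ligand.

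The promoters of the targets were read first, because RBPJ recognizes a short sequence. RefSeq windows of build GRCh38.p14 matched 8 of the 10 members, and HEY1 and DLL1 were named only. The RBPJ core TGGGAA or its reverse complement TTCCCA lay within the 250 bases before the transcription start of HEY2 and HES1, and in neither strand of the other 6 windows. The share of all 35116 windows of that length with a core was 20.8%. The longer form GTGGGAA or TTCCCAC, which contains the core, was found once in each of the same windows, against a share of 5.43%. Only these exact strings were searched, so other forms of an RBPJ site would be missed in any of the windows. Both sequences are shown 5′ to 3′ on the plus strand with the core in capitals, to show how the exact matches are placed. HES1 had a pair of matches in the same orientation close to the start, and HEY2 had a single inverted match far upstream.
HES1 (chr3:194135898-194136147): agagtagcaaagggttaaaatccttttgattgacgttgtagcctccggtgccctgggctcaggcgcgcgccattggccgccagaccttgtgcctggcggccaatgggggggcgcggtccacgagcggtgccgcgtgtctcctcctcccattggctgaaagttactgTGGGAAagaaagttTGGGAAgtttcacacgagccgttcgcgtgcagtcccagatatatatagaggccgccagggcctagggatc
HEY2 (chr6:125749382-125749631): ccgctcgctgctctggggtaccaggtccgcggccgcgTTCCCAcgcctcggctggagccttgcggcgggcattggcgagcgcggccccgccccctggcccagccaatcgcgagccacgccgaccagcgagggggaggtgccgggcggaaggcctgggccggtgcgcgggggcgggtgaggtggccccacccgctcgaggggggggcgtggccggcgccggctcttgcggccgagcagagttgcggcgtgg
The HES1 matches began 84 and 70 bases before the start, and the HEY2 match began 213 bases before it. By the GENCODE v44 annotation the HES1 window lies just outside the gene, and the HEY2 window lies inside the annotated span of the HEY2 gene. A match is a description of the letters in the window, and binding was not measured here.

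The authors' counts hold 191152562 unique molecular identifiers (UMIs, each marking 1 captured transcript) in 16866 barcodes of organoid 32.7 and 233818881 in 19948 barcodes of organoid 33.10, with medians of 7842 and 8284.5 UMIs per barcode. The study's cell filter left 16792 and 19893 cells. The libraries share 100 barcode sequences. Cells were called CDH5-positive at 2 or more UMIs of CDH5, the endothelial adhesion protein VE-cadherin. This gave 2916 cells (17.4%) in organoid 32.7 and 2827 cells (14.2%) in organoid 33.10. All 8 endothelial check genes, among them PECAM1, TIE1 and KDR, had UMIs in every gate of CDH5-positive cells, and their summed level was 2454 to 3478 CPM (counts per 1000000 UMIs of the gate) there. It was 115 to 884 CPM in the lineages with no CDH5 UMI, and the megakaryocyte gate was the highest of these, with PECAM1 alone at 249 and 240.3 CPM.

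CDH5-positive cells were divided by raw UMIs of CXCR4, a chemokine receptor of arterial endothelium, and NR2F2. CXCR4+NR2F2- cells (at least 1 UMI of CXCR4 and none of NR2F2) numbered 1482 and 1363 in organoids 32.7 and 33.10. CXCR4-NR2F2+ cells numbered 638 and 652, CXCR4+NR2F2+ cells 346 and 323, and cells with neither 450 and 489. Depth differed between the gates, and a cell with more UMIs has more chance to hold 1 UMI of either gene. The median was 15495 and 13752 UMIs in CXCR4+NR2F2- cells, 13428.5 and 13111.5 in CXCR4-NR2F2+ cells, 21401 and 22707 in CXCR4+NR2F2+ cells and 8811 and 8764 in cells with neither. Cells that also met the marker panel of another lineage made up 39.6% and 46.7% of the CXCR4+NR2F2+ cells and 18.8% to 26.7% of the other gates. Results for CXCR4+NR2F2+ cells are therefore given as levels with no test. The other lineages were 7 gates with no CDH5 UMI, each defined by 8 marker genes of cardiomyocytes, epicardial cells, mesenchyme, endoderm, erythroid cells, megakaryocytes or myeloid cells. The endoderm gate had 61 and 14 cells, too few for a test. Many kept cells were in no gate, and levels in them are not given here. In organoids 32.7 and 33.10, 5392 (32.1%) and 5649 (28.4%) had no CDH5 UMI and met no panel. A further 1462 (8.71%) and 1533 (7.71%) had only 1 CDH5 UMI, and 986 (5.87%) and 1735 (8.72%) without CDH5 met more than 1 panel. Cells that met only the epicardial and mesenchymal panels are not in this last count, because they were kept in the epicardial gate. The 8 mesenchymal panel genes summed to 939 and 734 CPM in that gate and to 1771 and 1302 CPM in the mesenchymal gate. Of the cells of the epicardial gate, 67.8% and 68.1% lay at the smallest number of panel genes allowed, as did 53.8% and 58.2% of those of the mesenchymal gate.

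NOTCH4 and DLL4 were high in CDH5-positive cells and low in every other gate. NOTCH4, a receptor known for its endothelial expression, was at 184 and 173 CPM in the CXCR4+NR2F2- cells of organoids 32.7 and 33.10, at 63.0 and 63.2 CPM in CXCR4-NR2F2+ cells and at 3.18 to 7.21 CPM in every lineage without CDH5. DLL4, the main Notch ligand of arterial endothelium and tip cells, was at 146 and 121 CPM in CXCR4+NR2F2- cells, at 31.3 and 29.2 CPM in CXCR4-NR2F2+ cells and at 0.891 to 9.65 CPM elsewhere. Both ordered the CDH5-positive gates from CXCR4+NR2F2- down to CXCR4-NR2F2+, and all of these lay above every other lineage in both organoids. The neighbours CXCR4+NR2F2+ and CXCR4-NR2F2- overlapped for DLL4 and did not for NOTCH4. After thinning to 5000 UMIs per cell, 49.96% and 46.0% of the CXCR4+NR2F2- cells had a DLL4 UMI, against 16.1% and 15.3% of the CXCR4-NR2F2+ cells. In myeloid cells, 0.815% and 0.855% had one. Before thinning the same shares were 82.4% and 74.0%, 31.5% and 28.7%, and 2.16% and 1.13%, at median depths of 12694.5 and 13235 UMIs in myeloid cells.

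**Figure D1:**
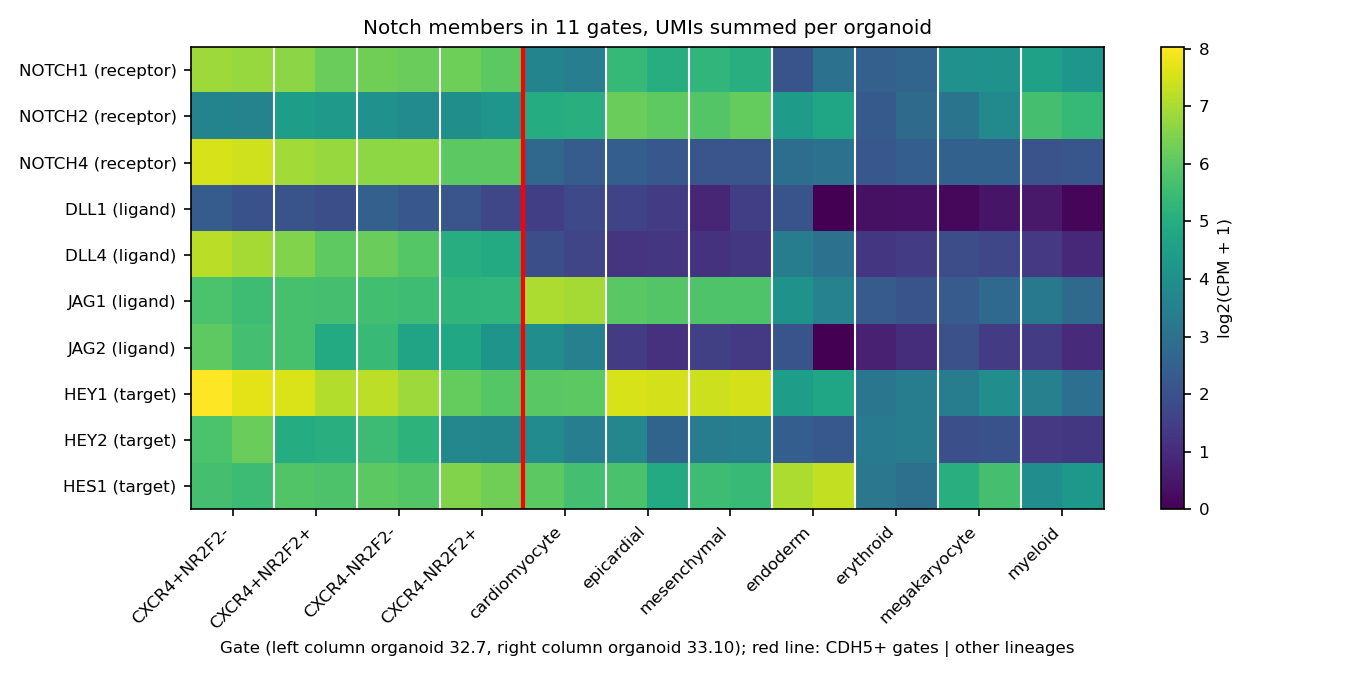
Levels of the 10 Notch members as log2(CPM + 1), with members in rows and the 11 gates in columns, each gate split into organoid 32.7 on the left and organoid 33.10 on the right, and a red line between CDH5-positive gates and other lineages. NOTCH4 and DLL4 are high only left of the line, JAG1 is highest in cardiomyocytes, HEY1 is high on both sides and HES1 is highest in endoderm.

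NOTCH1, the receptor needed for arterial fate and for blood stem cell formation, was at 115 and 109 CPM in CXCR4+NR2F2- cells and between 63.4 and 97.4 CPM in the other CDH5-positive gates. It was detected widely, at 31.2 to 40.3 CPM in epicardial and mesenchymal cells, 23.4 and 17.5 CPM in myeloid cells and 11.4 and 9.73 CPM in cardiomyocytes. The lowest gates, endoderm and erythroid, overlapped at 3.22 to 7.21 CPM. NOTCH2, a receptor of mesenchyme, smooth muscle and some blood cells, was highest outside the endothelium. Its levels were 57.9 to 71.5 CPM in epicardial and mesenchymal cells, 49.6 and 40.6 CPM in myeloid cells and 11.1 to 21.2 CPM in the CDH5-positive gates. Megakaryocytes had 7.58 and 13.4 CPM, and erythroid cells were lowest with at most 5.91 CPM. NOTCH2 counts are uncertain, because NOTCH2NLA, NOTCH2NLB and NOTCH2NLC are near-identical copies of part of the gene and reads that match several copies cannot be assigned. NOTCH2NLC was at 8.59 and 8.82 CPM in epicardial cells and 1.99 and 2.14 CPM in CDH5-positive cells, the same direction as NOTCH2.

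Among the other ligands, JAG1 was highest in cardiomyocytes, at 129.8 and 122 CPM. Epicardial cells followed with 61.6 and 57.4 CPM and mesenchymal cells with 55.3 and 56.0 CPM, above the CDH5-positive gates at 36.8 to 52.6 CPM, where CXCR4+NR2F2- cells overlapped with both CXCR4+NR2F2+ and CXCR4-NR2F2- cells. Blood lineages had 3.29 to 8.39 CPM. JAG2, another Jagged ligand found in arterial endothelium, was at 64.0 and 48.5 CPM in CXCR4+NR2F2- cells and declined to 26.9 and 16.8 CPM in CXCR4-NR2F2+ cells. Each pair of neighbouring gates overlapped, and organoid 32.7 was the higher one in all of them. Cardiomyocytes had 14.3 and 10.4 CPM, and the remaining lineages had at most 3.22 CPM. DLL1, a ligand best known from somites and the nervous system, was at 2.25 to 4.48 CPM in the CDH5-positive gates, and CXCR4+NR2F2- cells overlapped with each of the others. In the 14 endoderm cells of organoid 33.10, neither DLL1 nor JAG2 had a UMI, which allows a level of up to 10.8 CPM.

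The targets did not share a pattern. HEY1, a repressor acting in arterial endothelium and the atria, was at 260.1 and 205 CPM in CXCR4+NR2F2- cells, at 186 and 181 CPM in epicardial cells and at 169 and 181 CPM in mesenchymal cells. Its next gates, CXCR4+NR2F2+ and CXCR4-NR2F2-, overlapped with each other at 113 to 189.7 CPM. The CXCR4+NR2F2+ cells, at 189.7 and 136 CPM, also overlapped with epicardial and mesenchymal cells. CXCR4-NR2F2+ cells at 69.5 and 59.5 CPM did not separate from cardiomyocytes at 62.5 and 63.1 CPM. HEY2, the family member of arteries and ventricular muscle, was at 53.2 and 72.1 CPM in CXCR4+NR2F2- cells and at 12.1 and 12.0 CPM in CXCR4-NR2F2+ cells. The latter overlapped with cardiomyocytes at 13.8 and 9.78 CPM and with epicardial cells at 12.2 and 5.01 CPM. HES1, a repressor active in many progenitors, had the reverse order within the endothelium. It was at 50.1 and 44.7 CPM in CXCR4+NR2F2- cells and at 89.5 and 76.8 CPM in CXCR4-NR2F2+ cells, and endoderm was highest with 131 and 155 CPM. HES1 in CXCR4+NR2F2- cells overlapped with cardiomyocyte, mesenchymal, megakaryocyte and epicardial cells.

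**Figure D2:**
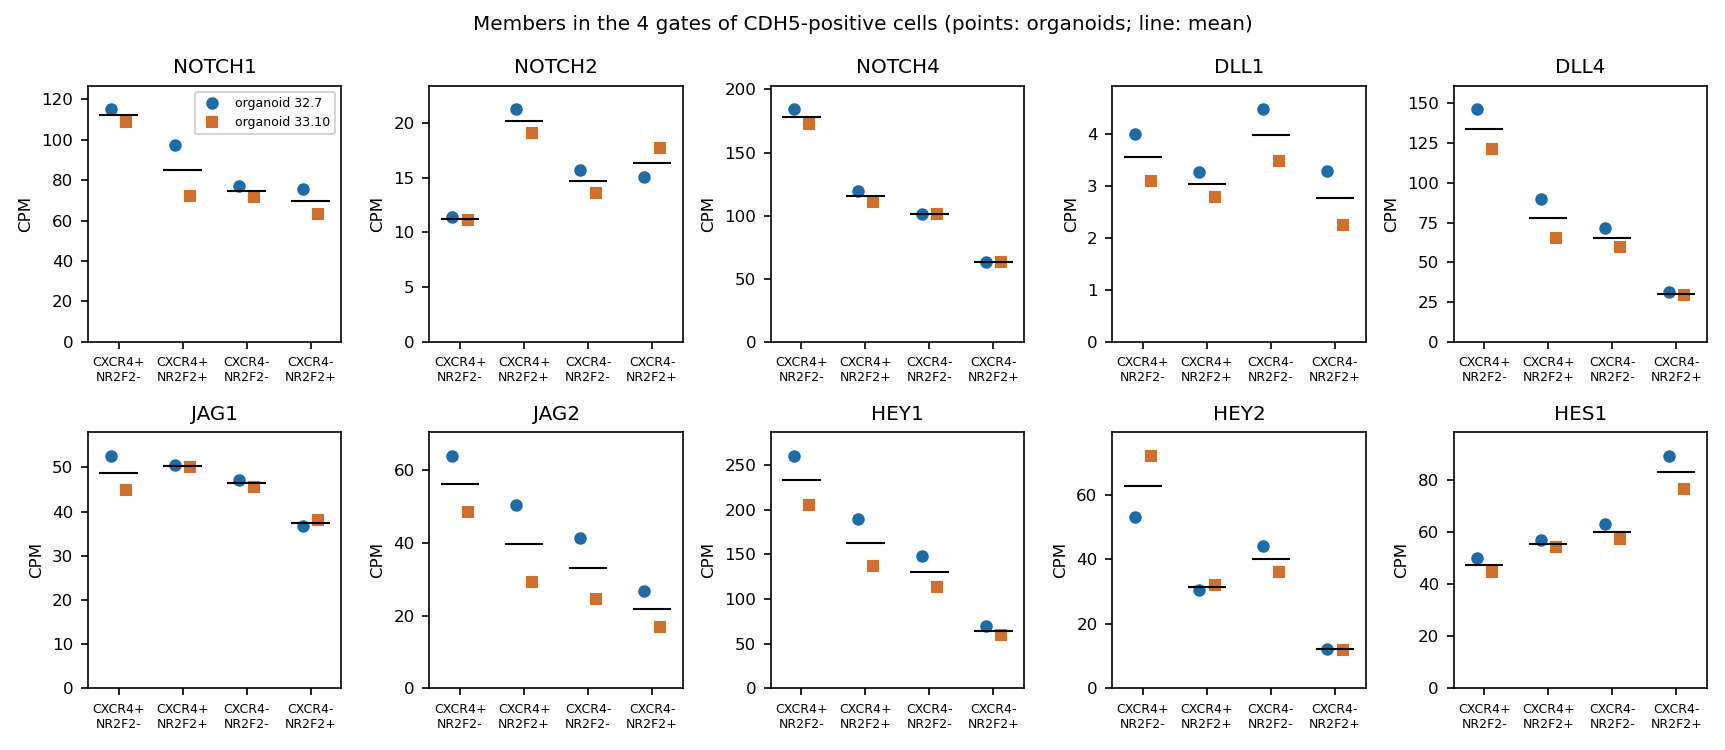
CPM of each member in the 4 gates of CDH5-positive cells, with 1 point per organoid (circles 32.7, squares 33.10) and a line at the mean. DLL4 falls from 146 and 121 CPM in CXCR4+NR2F2- cells to 31.3 and 29.2 CPM in CXCR4-NR2F2+ cells, while HES1 goes from 50.1 and 44.7 CPM to 89.5 and 76.8 CPM.

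The comparison of CXCR4+NR2F2- with CXCR4-NR2F2+ cells asked how the pathway differs between endothelium with an arterial and with a venous marker. Of the 10 members, 7 were higher in CXCR4+NR2F2- cells, 1 was lower and 2 were not called. Over all 17751 genes tested, 13.5% were called, 6.66% higher and 6.88% lower (edgeR's quasi-likelihood test on UMIs summed per organoid and gate, adjusted p under 0.05). The median log2 fold change of the members was 1.08 and that of all genes was -0.01. A pair of organoids allows no exact test below 0.05, so the p-values rest on the spread that edgeR shares across genes. With the organoid as a block, 6310 genes were called in place of 2404.

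Target genes were at both ends of the list. HEY2 was 5.38-fold higher (log2 fold change 2.43, SE 0.17, edgeR adjusted p = 0.000106), with means of 62.6 ± 13.4 and 12.1 ± 0.110 CPM (SD, n = 2). HEY1 was 3.75-fold higher (log2 fold change 1.91, SE 0.23, edgeR adjusted p = 0.00131), with means of 233 ± 38.6 and 64.5 ± 7.07 CPM. HES1 was lower (log2 fold change -0.76, SE 0.13, edgeR adjusted p = 0.00736), with means of 47.4 ± 3.83 and 83.2 ± 8.93 CPM. The gates did not overlap for any of the 3 targets, and each had the same call under all 15 alternatives. HES1 thus differed in the direction opposite to HEY1 and HEY2 in both organoids.

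Among ligands, DLL4 was 4.60-fold higher in CXCR4+NR2F2- cells (log2 fold change 2.20, SE 0.20, edgeR adjusted p = 0.000332). JAG2 was 2.67-fold higher (log2 fold change 1.42, SE 0.36, edgeR adjusted p = 0.0383). Its values within each organoid were 64.0 against 26.9 CPM and 48.5 against 16.8 CPM. JAG1 was 1.35-fold higher (log2 fold change 0.44, SE 0.11, edgeR adjusted p = 0.0423), the weakest of the called members. It was called in 9 of 15 alternatives. The call was lost, among others, when each cell was thinned to 5000 UMIs (log2 fold change 0.30, edgeR adjusted p = 0.407). In that alternative the gates were set anew on the thinned UMIs, leaving 579 and 452 CXCR4+NR2F2- cells and 300 and 239 CXCR4-NR2F2+ cells. It thus changed the cells and their number as well as the depth. The log2 fold change of JAG1 was 0.58 in organoid 32.7 and 0.29 in organoid 33.10. DLL1 had a log2 fold change of 0.42 with an SE of 0.30 and was not called (edgeR adjusted p = 0.412).

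Among receptors, NOTCH4 was 2.94-fold higher in CXCR4+NR2F2- cells (log2 fold change 1.56, SE 0.10, edgeR adjusted p = 5.95e-05). NOTCH1 was 1.67-fold higher (log2 fold change 0.74, SE 0.17, edgeR adjusted p = 0.0246), with means of 112 ± 4.34 and 69.6 ± 8.75 CPM. NOTCH2 had 11.4 and 11.1 CPM against 15.1 and 17.7 CPM and was not called (log2 fold change -0.49, SE 0.15, edgeR adjusted p = 0.0710), whereas the fit with the organoid as a block called it lower (edgeR adjusted p = 0.0120). NOTCH4 and NOTCH1 were called in all 15 alternatives and NOTCH2 in 5. The log2 fold change of NOTCH2 was -1.21 in thinned cells and -0.29 without dividing cells, not called in either, and -0.82 with top-scoring doublets removed (edgeR adjusted p = 0.0479).

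**Figure D3:**
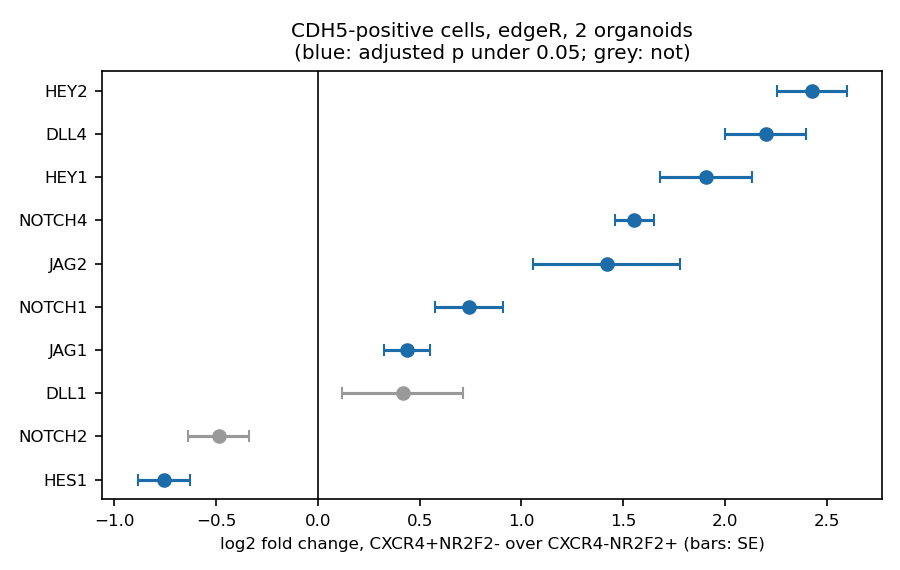
Log2 fold change of the 10 members in CXCR4+NR2F2- over CXCR4-NR2F2+ cells from edgeR, with bars of 1 SE. HEY2, at 2.43, and HES1, at -0.76, are the ends of the range, and the grey points DLL1 and NOTCH2 did not pass an adjusted p of 0.05.

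Of the 37 other Notch pathway genes listed, 34 were tested. In CXCR4+NR2F2- cells 6 were higher, 1 was lower and 27 were not called, with a median log2 fold change of 0.08. Over all genes tested, 6.66% were higher and 6.88% lower, the shares to set beside this list and the 2 below. NRARP, a target that limits Notch signalling, had a log2 fold change of 1.52 (56.4 and 37.2 against 21.6 and 12.4 CPM). HES4, another HES repressor, had 1.40, the gamma-secretase subunit PSEN2 had 0.75, the coactivator MAML3 0.63 and the protease ADAM10 0.36. MFNG, a glycosyltransferase that modifies Notch receptors, was the 1 gene that was lower, at -0.67. RBPJ, the DNA-binding partner of the receptors, had -0.28 and NOTCH3 had -0.46, and neither was called. Of 10 arterial genes 9 were tested and 7 were higher, led by UNC5B (2.41), EFNB2 (2.35) and SOX17 (2.26), while BMX was lower (-1.73) at 0.474 to 1.87 CPM. Of 8 venous genes 6 were lower, led by APLNR (-1.92) and NRP2 (-1.65). The study itself used some of these genes, and also DLL4, CXCR4 and NR2F2, to name endothelial clusters of these organoids. They are therefore no independent evidence of the direction.

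Values that moved with the comparison were cell division and cells of mixed identity. UMIs of MKI67 or TOP2A, genes of dividing cells, were found in 14.2% and 13.5% of CXCR4+NR2F2- cells and in 21.2% and 27.8% of CXCR4-NR2F2+ cells. Without these cells the log2 fold changes were 2.24 for DLL4, 2.04 for HEY1 and -0.91 for HES1, all called. Without cells that met the panel of another lineage, they were 2.15, 2.25 and -0.94, all called, and the count over all genes was 3759. Summed levels of 3 erythroid check genes were 1525 and 4296 CPM in CXCR4+NR2F2- cells and 2322 and 4904 CPM in CXCR4-NR2F2+ cells, those of 2 megakaryocyte genes were 259 and 710 against 750 and 939 CPM, those of 2 endoderm genes were 12.6 and 6.43 against 113 and 15.8 CPM, and those of the collagens COL1A1 and COL3A1 were 226 and 171 against 356 and 330 CPM. Their part in the result was not tested. With an assumed 10% of each sum removed as the library's mean profile, the log2 fold change of DLL4 was 2.32 and that of HES1 was -0.81.

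Levels were then followed along the number of CXCR4 or NR2F2 UMIs in CDH5-positive cells thinned to 5000 UMIs, so that depth did not set the bins. DLL4 went from 70.8 and 59.8 CPM at no CXCR4 UMI to 125 and 126 CPM at 1 UMI and 311 and 215 CPM at 5 or more. HEY1 went from 137 and 107 CPM to 435 and 301 CPM, and JAG2 from 45.5 and 29.6 CPM to 115 and 76.9 CPM. In both organoids the highest bin, which held 155 and 117 cells, was above the lowest for each of these genes, while JAG2 in organoid 33.10 was lower at 2 UMIs (40.6 CPM) than at 1 UMI (54.3 CPM). HES1 declined from 78.6 and 67.7 CPM to 40.0 and 46.2 CPM, and JAG1 showed no steady order, with 49.3 and 41.1 CPM in the lowest bin and 46.5 and 34.2 CPM in the highest.

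Along NR2F2 UMIs HEY2, DLL4 and JAG1 were lower at the highest bin than at the lowest. HEY2 went from 54.7 and 66.7 CPM at no NR2F2 UMI to 17.0 and 27.4 CPM at 1 UMI and 6.35 and 0 CPM at 5 or more, where 0 allows up to 17.1 CPM. DLL4 went from 135 and 112 CPM to 25.4 and 17.1 CPM, and HES1 was 58.1 and 58.9 CPM at no UMI, 124 and 103 CPM at 2 UMIs and 105 and 68.6 CPM at 5 or more. NOTCH1 had the lowest values in the middle bins, 70.4 CPM at 3 to 4 UMIs in organoid 32.7 and 48.7 CPM at 2 UMIs in organoid 33.10, and 114 and 91.4 CPM at 5 or more. The highest NR2F2 bin held 63 and 35 cells, and its values are the least certain. The NR2F2 and CXCR4 bins are not independent of each other, since CXCR4 was at 274 and 243 CPM in cells without NR2F2 and at 9.52 and 5.71 CPM in cells with 5 or more NR2F2 UMIs.

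**Figure D4:**
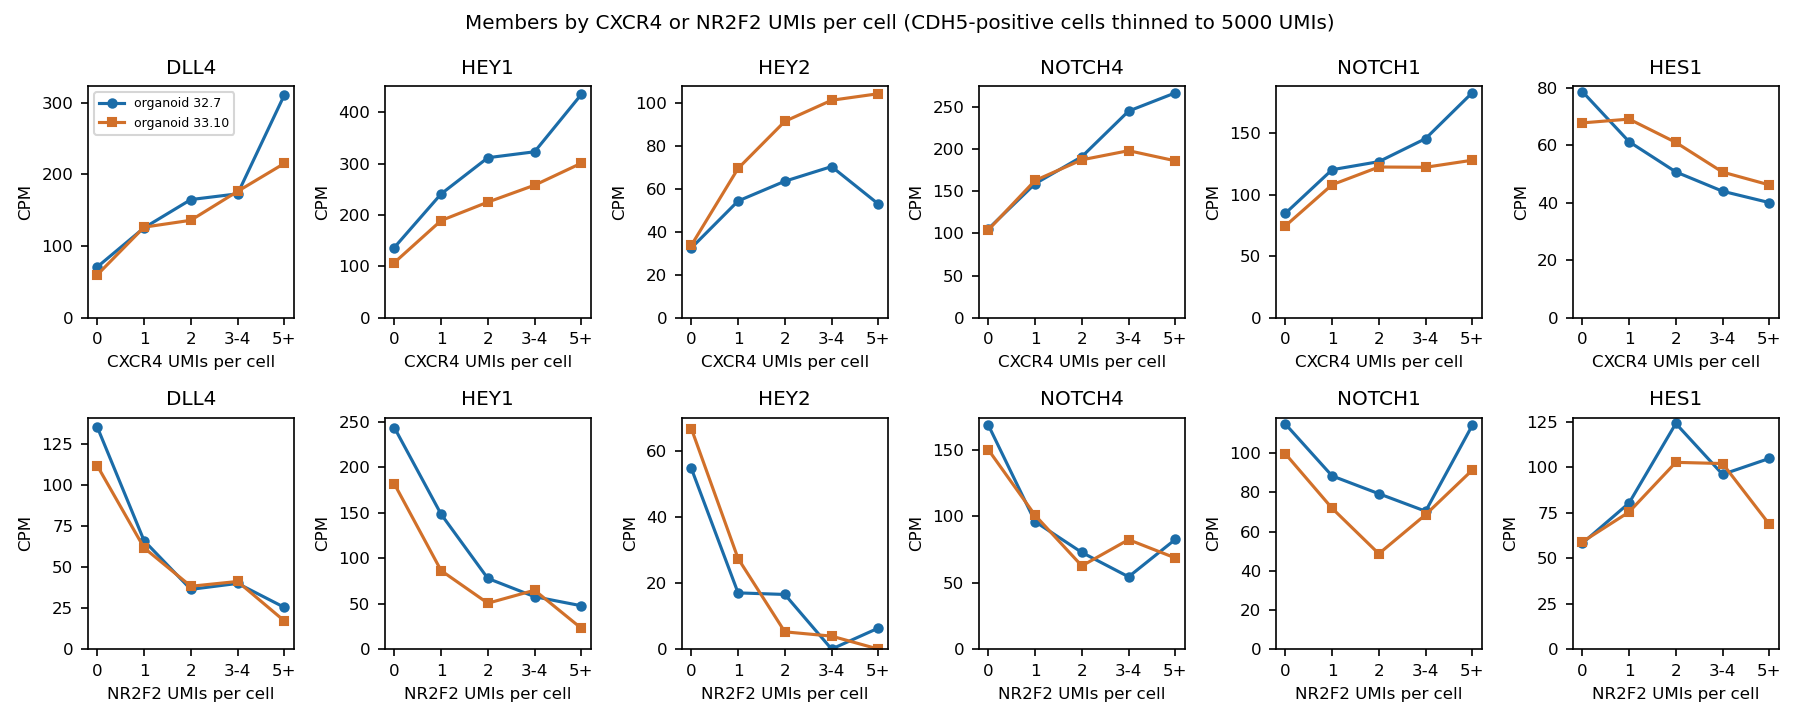
CPM of 6 members in CDH5-positive cells thinned to 5000 UMIs, against the number of CXCR4 UMIs (top) or NR2F2 UMIs (bottom) per cell, with circles for organoid 32.7 and squares for organoid 33.10. From the lowest to the highest CXCR4 bin DLL4 goes from 70.8 and 59.8 to 311 and 215 CPM, and HES1 goes from 78.6 and 67.7 to 40.0 and 46.2 CPM.

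Within a gate, cells with a DLL4 UMI were set beside cells without one. The organoids were dissociated, so this split compares transcripts within a cell and cannot show which cells were neighbours. In CXCR4+NR2F2- cells, HEY1 was at 326 and 258 CPM with DLL4 and at 248 and 182 CPM without it. NOTCH4 was at 224 and 203 against 170.4 and 154 CPM, NOTCH1 at 141 and 133 against 111 and 101 CPM and JAG2 at 88.3 and 63.8 against 57.7 and 45.6 CPM. NOTCH4, NOTCH1, JAG2 and HEY1 were thus higher in the same cells in both organoids, while JAG1 (50.2 and 46.0 against 51.3 and 43.6 CPM) and HES1 went in opposite directions in the organoids. In CXCR4-NR2F2+ cells the same split gave HEY1 at 133 and 86.7 against 59.7 and 44.4 CPM and NOTCH4 at 84.2 and 118 against 58.5 and 65.6 CPM, from 95 and 90 cells with a DLL4 UMI. NOTCH1 (94.7 and 48.9 against 67.7 and 56.4 CPM) and HEY2 (8.42 and 26.7 against 13.3 and 10.0 CPM) went opposite ways in the organoids there. CXCR4 itself was higher in the DLL4 cells of the first gate (460.1 and 422 against 299 and 307 CPM), and MKI67 was lower (6.49 and 5.15 against 19.4 and 15.5 CPM). The part of either in these differences was not tested, and the split rests on 2 organoids and is given with no test.

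**Figure D5:**
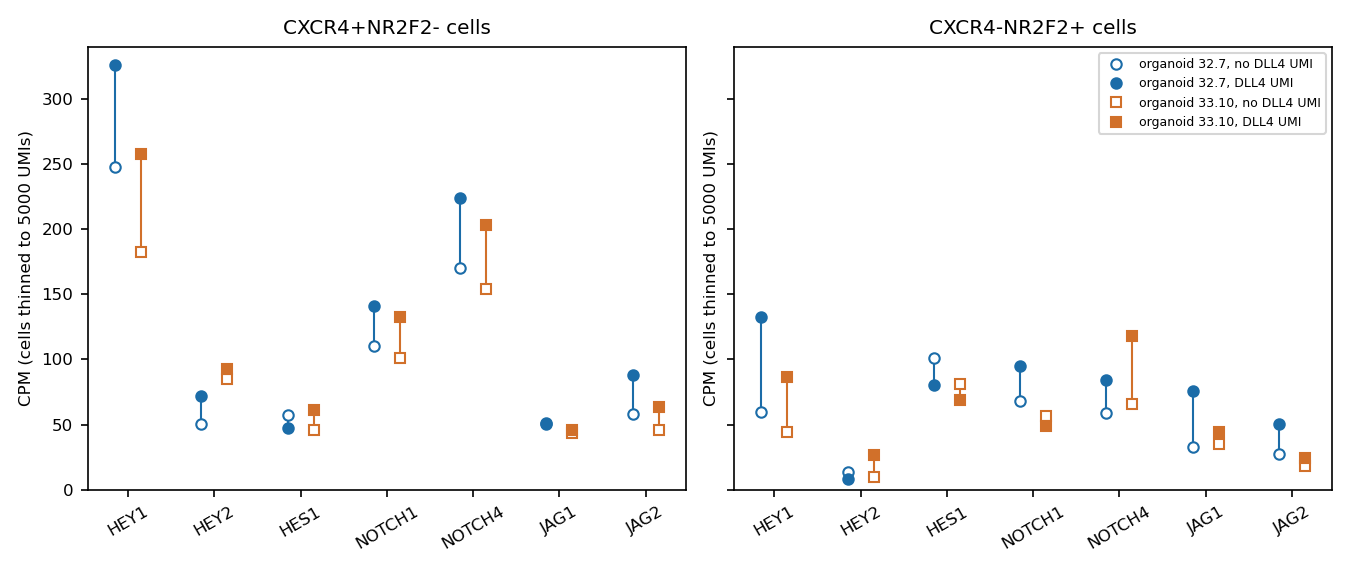
CPM of 7 members in cells with a DLL4 UMI (filled) and without one (open), for CXCR4+NR2F2- cells on the left and CXCR4-NR2F2+ cells on the right, all thinned to 5000 UMIs, with circles for organoid 32.7 and squares for organoid 33.10. HEY1 is higher with DLL4 in both gates and both organoids, from 248 to 326 CPM in the CXCR4+NR2F2- cells of organoid 32.7.

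All CDH5-positive cells together were then compared with each lineage that had enough cells, over 21259 genes tested. Many genes differ between such lineages, and the share called is given beside each count. Against cardiomyocytes, 6 members were higher, 2 lower and 2 not called, where 53.9% of all genes were called, 27.9% higher and 26.0% lower. Against epicardial cells, 5 were higher, 1 lower and 4 not called, where 44.8% of all genes were called, 21.7% higher and 23.1% lower. Against mesenchymal cells, 6 were higher, 1 lower and 3 not called, beside 43.9% of all genes, 21.5% higher and 22.4% lower. All 10 were higher in CDH5-positive cells than in erythroid cells, where 58.5% of all genes were called, 33.2% higher and 25.3% lower. Against megakaryocytes 8 were higher and 2 not called, beside 55.0% of all genes, 28.1% higher and 26.9% lower. Against myeloid cells 9 were higher and 1 lower, beside 54.2% of all genes, 27.4% higher and 26.7% lower. The median log2 fold change of the members was between 1.15 and 3.52, and that of all genes was between -0.02 and 0.21.

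DLL4 and NOTCH4 were called higher in CDH5-positive cells against each of the 6 lineages, with log2 fold changes of 4.89 to 6.13 and of 4.45 to 5.31. The shares of cells with a DLL4 UMI given above had the same direction against myeloid cells. JAG2 was also higher in all 6, from 1.79 against cardiomyocytes to 4.96 against epicardial cells, as was NOTCH1, from 1.42 against mesenchymal cells to 3.65 against erythroid cells, and HEY2, from 1.60 against erythroid cells to 4.55 against myeloid cells. These members, DLL4, NOTCH4, JAG2, NOTCH1 and HEY2, were thus called higher in CDH5-positive cells against each lineage tested. The calls are for all CDH5-positive cells together. For HEY2, CXCR4-NR2F2+ cells alone overlapped with cardiomyocytes, at 12.1 and 12.0 against 13.8 and 9.78 CPM. They also overlapped with epicardial cells, at 12.2 and 5.01 CPM.

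NOTCH2 was lower in CDH5-positive cells than in 4 of the 6 lineages, and JAG1 was lower than in 1 and higher than in 3. NOTCH2 was lower in CDH5-positive cells than in epicardial cells (log2 fold change -2.22, SE 0.20, edgeR adjusted p = 4.88e-06), mesenchymal cells (-2.15), myeloid cells (-1.97) and cardiomyocytes (-1.17). Against megakaryocytes it was not called (-0.03). Against erythroid cells it was higher (0.88, edgeR adjusted p = 0.00567) and was called in 10 of 14 alternatives. The call was lost, among others, without cells of mixed identity (-0.07), with thinned cells (0.12) and without dividing cells (0.13). Without organoid 33.10 the log2 fold change of NOTCH2 was 1.39. JAG1 was lower in CDH5-positive cells than in cardiomyocytes (log2 fold change -1.48, SE 0.15, edgeR adjusted p = 9.20e-06) and was not called against epicardial cells (-0.32, edgeR adjusted p = 0.107) or mesenchymal cells (-0.27, edgeR adjusted p = 0.185). It was higher than in erythroid cells (3.09), megakaryocytes (2.79) and myeloid cells (2.36). With the organoid as a block, it was called lower than in epicardial cells (edgeR adjusted p = 0.0199). Cardiomyocytes thus held more of both genes than CDH5-positive cells, and epicardial, mesenchymal and myeloid cells held more NOTCH2.

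HEY1 was higher in CDH5-positive cells than in 4 of the 6 lineages and HES1 than in 2. HEY1 did not differ detectably between all CDH5-positive cells together and epicardial cells (log2 fold change -0.04, SE 0.19, edgeR adjusted p = 0.872) or mesenchymal cells (-0.01, SE 0.19, edgeR adjusted p = 0.970). The pool hides gates on both sides of epicardial cells, which had 186 and 181 CPM. CXCR4+NR2F2- cells had 260.1 and 205 CPM of HEY1, and CXCR4-NR2F2+ cells had 69.5 and 59.5 CPM. For the whole pool HEY1 was higher than in cardiomyocytes (1.44) and in the blood lineages (3.43 to 4.02). HES1 was not called against cardiomyocytes (0.03, SE 0.25), epicardial cells (0.55, SE 0.26), mesenchymal cells (0.40, SE 0.26) or megakaryocytes (0.07, SE 0.26), and was higher than in erythroid cells (2.33) and myeloid cells (1.53). In thinned cells and without mixed cells HES1 was called higher than in epicardial cells (1.57 and 0.81) and mesenchymal cells (0.95 and 0.66), and without dividing cells it was called higher than in epicardial cells (0.90). Against epicardial cells the fit with the organoid as a block also called HES1 higher (edgeR adjusted p = 0.0449) and also DLL1 (edgeR adjusted p = 0.0431, against 0.0747 without the block). In all, 3 of 14 alternatives called DLL1 higher than in epicardial cells. DLL1 was called higher than in mesenchymal cells (1.38) and in the blood lineages, from 3 and 6 UMIs in erythroid cells, 1 and 8 UMIs in megakaryocytes and 8 and 1 UMIs in myeloid cells of organoids 32.7 and 33.10. Leaving out organoid 33.10 moved its log2 fold change against megakaryocytes from 3.08 to 4.33, and leaving out organoid 32.7 moved that against myeloid cells from 3.02 to 4.28.

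Genes whose level was most like that of a member over the 22 sums (11 gates in 2 organoids) were named as a description, from 10633 genes with a mean of at least 10 CPM. The sums of a gate share its cells, and 2 sums per gate come from the same cell type. For DLL4 they were NOTCH4 (Pearson's r 0.99), PLEKHG1 (0.98) and FGF12 (0.98), and for NOTCH4 they were AC093817.2, PLEKHG1 and TM4SF18 (each 0.99). For HEY1 the nearest was the arterial guidance receptor UNC5B (0.98), which shares its high level in the epicardial gate. JAG1 was nearest to FXYD6 (0.98), NOTCH1 to VAMP3 (0.97), JAG2 to CAVIN1 (0.97), NOTCH2 to UST (0.95) and HEY2 to CDH8 (0.95). The nearest to HES1 was AC007364.1 (0.93), and to DLL1 it was PXDC1 (0.92).

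All members are protein-coding genes in the GENCODE v44 annotation of GRCh38. The receptors NOTCH1, NOTCH2 and NOTCH4 are at chr9:136494433-136546048, chr1:119911553-120100779 and chr6:32194843-32224067, all on the minus strand. The ligands DLL1 (chr6:170282206-170306565), JAG1 (chr20:10637684-10673999) and JAG2 (chr14:105140982-105168824) are also on the minus strand, and DLL4 (chr15:40929340-40939073) is on the plus strand. Among the targets, HEY2 (chr6:125747664-125761269) and HES1 (chr3:194136148-194138732) are on the plus strand and HEY1 (chr8:79762371-79767857) is on the minus strand.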

How the data were processed

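Single-cell libraries of 2 BG-HFOs, 1 per organoid, were used. The deposited matrices are raw UMI counts, which the authors obtained by running Cell Ranger 7.0.0 against GRCh38 with intronic reads included, according to the file header and the submitters' processing notes. No normalization was applied, and each barcode holds at least 500 UMIs. Long introns can raise the count of a gene, and free RNA was not removed.

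The study's filter was applied: barcodes needed 50 to 11000 detected genes and a mitochondrial share under 30%. Gates were set on raw UMIs: CDH5 at 2 or more, CXCR4 and NR2F2 at 1 or more against 0. Lineages had no CDH5 UMI and at least 4 of 8 panel genes (epicardial 3). Cells that met only the epicardial and mesenchymal panels were kept as epicardial. Cells that met any other combination of panels were left out. These thresholds are not the study's, which clustered cells. UMIs were summed per organoid and gate (CPM is per 1000000 UMIs of the sum). CPM has no TMM scaling, so orders and overlaps read from CPM can differ from the fitted log2 fold changes. NOTCH2 had 14.2 and 14.3 CPM in CDH5-positive cells and 7.58 and 13.4 CPM in megakaryocytes, with a fitted log2 fold change of -0.03. Tests used edgeR 4.0.16 in R 4.3.3 (quasi-likelihood, TMM, filterByExpr, Benjamini-Hochberg over all genes tested): 1 fit of the 4 CDH5-positive gates and 1 fit of CDH5-positive cells with 6 lineages. The reported SE is the log2 fold change divided by the square root of F. Python 3.11.15 and scanpy 1.11.5 were used for counting. Doublets were kept, and an alternative removed the cells with the highest Scrublet scores at 0.8% per 1000 barcodes in both libraries.

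The gates of an organoid come from the same organoid, and deviations of its gates from the gate means correlated at 0.36 to 0.50 over the 6 pairs of gates, so the organoid pairs the sums. A fit with the organoid as a block was an alternative. On simulated counts of the comparison within CDH5-positive cells (17285 genes), 55 of 100 genes with a true log2 fold change of 1 were recovered. With one of 2 it was 89 of 100, and 8.86% of calls were false at an adjusted p under 0.05. These counts were drawn independently with no organoid effect, so the rates do not cover the pairing of the real sums. The changed genes were a smaller share of all genes than the 13.5% called in the data, and genes with few UMIs were not among them. The rates need not hold for the real test or for such genes. All members are named, other pathway genes by the largest changes among those called, with 1 gene not reported here. The members and lists were chosen with earlier results of these data known. Labels call the organoids separate samples. The p-values rest on differences between the 2 organoids within gates, which edgeR pools over gates and shares across genes. The main fits had no organoid term. Counts were the only unit used, and intervals or limits from counts cover counting error only.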

Additional observations from a re-analysis of the deposited data

How the results depend on the processing

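The count of genes called stayed within 1.5 times its main value in 96 of 99 cases. The exceptions were the endothelial comparison with the organoid as a replicate block (6310 genes) or without cells of mixed identity (3759), against 2404, and the myeloid comparison in thinned cells (7479). Beside NOTCH2 within the endothelium and JAG1, HES1 and DLL1 against epicardial cells, the block ended or added no member's call. Within the endothelium no member changed direction. JAG1 was lost with DESeq2, only the 2 gates compared, CDH5 at 3 UMIs, thinning, no cell filter and top-scoring doublets removed (adjusted p 0.0548 to 0.407), and NOTCH2 was gained with the block, CDH5 at 1 UMI, no cell filter, doublets removed and 10% of the profile removed (0.0120 to 0.0479). DLL1 was not tested after thinning.

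Log2 fold changes that changed sign were not called after the change, and the cause was not tested. HES1 against cardiomyocytes became -0.0077 with RLE, -0.0074 with DESeq2, -0.047 with CDH5 at 1 UMI and -0.0020 at 3 UMIs, and against megakaryocytes -0.00074 with CDH5 at 1 UMI. HEY1 against epicardial cells became 0.10 with thinning and with 1 more panel gene, 0.28 without mixed cells, 0.037 without dividing cells and 0.12 without doublets. Against mesenchymal cells HEY1 became 0.025 without a filter on low counts, 0.00068 with CDH5 at 3 UMIs, 0.13 with thinning, 0.31 without mixed cells, 0.071 without dividing cells, 0.15 without doublets and 0.018 with 10% of the profile removed. JAG1 against mesenchymal cells became 0.043 with thinning. NOTCH2 against erythroid cells, called in the main fit, became -0.072 without mixed cells, and against megakaryocytes it became 0.091 without a filter on low counts, 0.19 with CDH5 at 1 UMI, 0.032 without a cell filter and 0.10 with 10% of the profile removed. It was called lower than in megakaryocytes after thinning (-0.93) and without mixed cells (-0.98). HES1 against epicardial cells was 1.57 after thinning, and DLL1 was 3.81. Leaving out an organoid gave values with no test, and for members not called in the main fit their sign changes are not listed above. Against megakaryocytes such values reached 0.60 for NOTCH2 and -0.16 for HES1. Endoderm, with 14 cells in 1 organoid, was tested under no setting.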

Other observations

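CDH5-positive cells with a UMI of RUNX1, a transcription factor of endothelium that gives rise to blood, were set beside those without one. After thinning to 5000 UMIs these were 240 and 306 against 2444 and 2231 cells of organoids 32.7 and 33.10. Cells that also met the panel of another lineage, 23.1% and 26.7% of all CDH5-positive cells, were kept. Their share among the cells with RUNX1 was not computed. DLL4 was at 59.2 and 53.6 CPM with RUNX1 and at 122 and 105 CPM without it. HEY1 was at 118 and 95.4 against 222 and 166 CPM, NOTCH4 at 85.8 and 93.5 against 155 and 142 CPM and JAG2 at 34.2 and 23.5 against 62.0 and 43.4 CPM, lower with RUNX1 in both organoids. NOTCH2 was higher, at 14.2 and 18.3 against 10.2 and 8.87 CPM. These cells also held more MKI67 (53.3 and 51.0 against 12.2 and 18.8 CPM), more PTPRC, a gene of blood cells (52.5 and 20.9 against 7.04 and 1.17 CPM), and less CXCR4 (113 and 113 against 237 and 214 CPM). The part of these in the levels of the members was not tested.

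Dividing CDH5-positive cells, with an MKI67 UMI (151 and 181 cells), had lower DLL4 (39.7 and 50.8 against 121 and 102 CPM) in both organoids. NOTCH4 (72.8 and 65.2 against 153 and 142 CPM) and NOTCH1 (55.6 and 57.5 against 111 and 95.6 CPM) were also lower in both. JAG1 was at 51.7 and 46.4 against 47.3 and 43.2 CPM. All are descriptions over 2 organoids with no test.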
